A study of Mus musculus with 12 samples.

Results

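Potassium channel genes were taken as all genes whose name on the array begins with Kcn, the prefix shared by channel pores and by the subunits that carry their names. They numbered 87 of the 21186 gene names of the annotation, with 130 of its 34891 named probes. Expression was measured in the entire cerebellum and the entire hippocampus of mice without Engrailed-2 (En2KO, En2-/-, in which the part of the gene that codes for the homeobox domain is deleted) and of En2WT littermates. Each of the 4 groups had 3 one-colour arrays, 12 in all, hybridised with labelled RNA of whole tissue. The mice were adults of 3 to 5 months and of both sexes, and all came from matings of heterozygous parents on a line of mixed 129Sv, C57BL/6 and outbred origin that had been bred repeatedly into C57BL/6. The En2KO cerebellum is known to be small and to hold fewer Purkinje cells, so that in whole tissue fewer cells of a type and less RNA per cell cannot be told apart. The labels do not tie a hippocampus to the cerebellum of the same mouse.

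Potassium channels set the resting potential of neurons, end the action potential and fix how fast a cell can fire again. Voltage-gated pores (the Kv groups) open on depolarisation, inward rectifiers hold the potential near rest, 2-pore channels give a steady leak, and calcium- or sodium-activated pores open when those ions enter. Many pores work only in company: silent modifier subunits join a voltage-gated pore without forming a channel alone, and accessory proteins set how many channels reach the membrane and how fast they close. Cerebellar Purkinje and granule cells and hippocampal pyramidal cells differ in firing pattern, and the question set here was how the channel genes differ between the regions and between the genotypes.

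Values are log2 intensities, quantile normalised over the 12 arrays, of the probe with the highest mean among the probes of a gene. They can be set side by side between arrays but not between genes, since each probe binds with its own strength. Each array held 43379 spots, of which 62.3% to 73.0% were well above background, 110 to 331 carried an outlier flag and 0 were saturated, and precision is limited by the small number of arrays. Of the members, 59 were well above background on all 12 arrays, 25 on some and 3 on none. The tissue labels held: all 5 Purkinje markers and all 5 granule cell markers were called higher in the cerebellum, and all 5 pyramidal cell markers higher in the hippocampus, in both genotypes. The probe for En2 lies in the 3′ untranslated part of its transcript, outside the deletion, and so checks nothing about the genotype. Its cerebellar log2 change was 0.31 (limma adjusted p = 0.841) and its hippocampal one -0.23 (limma adjusted p = 0.736).

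A gene was tested in a comparison if 1 of its groups, or both, had the probe well above background on every array, and was called at a limma adjusted p under 0.05, adjusted over all genes tested. Between the regions of En2WT mice, 45 of 74 tested members (60.8%) were called, against 32.2% of all genes. Higher in the cerebellum were 19 members (25.7%, against 17.3% of all genes), and higher in the hippocampus were 26 (35.1%, against 14.9%). The median difference of the members, cerebellum minus hippocampus, was -0.21 on the log2 scale, beside 0.07 over all genes tested. The range among members ran from -5.71 for Kcnv1 to 3.98 for Kcng4. Of the 74, 13 were tested only through the region where they were bright, and 7 of these were called. A probe that passes only where it is bright is more likely to differ, so the counts are given as a description. Kcnab1, bright in both regions, is among the 13 because 1 of its cerebellum spots was flagged.

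The direction of these counts depended on the scaling. With the authors' own processed values, which were normalised within each region, the median of all genes moved from 0.07 to 0.32 and the share of calls higher in the cerebellum from 53.7% to 78.7%. For the members, 24 of 39 calls among 60 tested were then higher in the cerebellum, in place of 19 of 45. The differences of Kcng4, Kcnj4, Kcnt1 and Kcnt2, described in the following, kept their direction and their call with those values. Not all members could be tested with them, and nothing is stated here for Kcnv1, Kcnh3 and Kcnip2 under that setting.

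**Figure D1:**
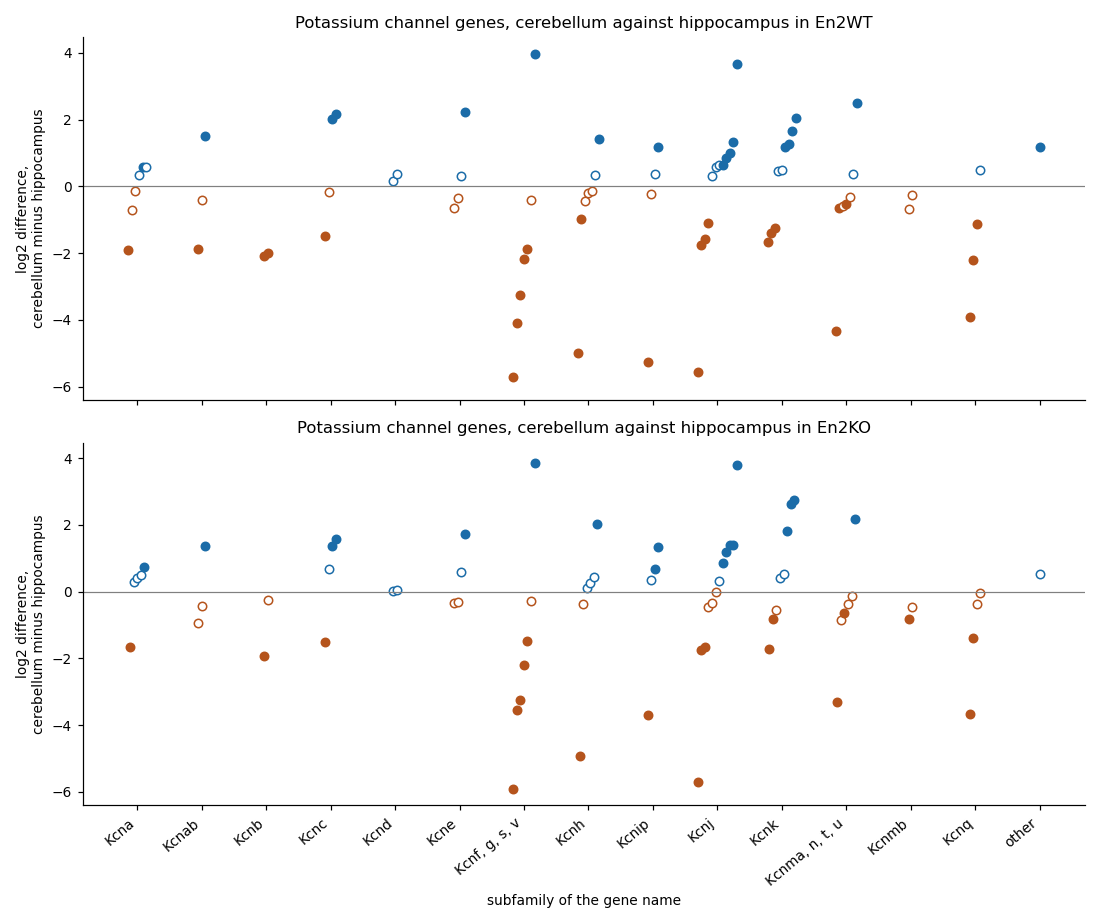
Log2 difference, cerebellum minus hippocampus, of each tested member (vertical axis) by subfamily of the gene name (horizontal axis), in En2WT (upper panel, 74 members) and En2KO (lower panel, 70 members). Filled points were called and open points were not, with blue above 0 and brown under 0. The Kcnf, Kcng, Kcns and Kcnv modifiers reach from -5.71 to 3.98 in En2WT, while the Kcnd pores, by their brightest probes, stay near 0.

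Kcnv1, a silent modifier, had the lowest difference, cerebellum minus hippocampus, of all tested members. Its log2 intensity in the cerebellum was 2.16, 1.99 and 2.11 in En2WT and 2.12, 2.31 and 1.99 in En2KO, and none of these arrays was well above background. In the hippocampus it was 7.83, 7.80 and 7.76 in En2WT and 7.91, 8.17 and 8.07 in En2KO. The 6 hippocampus arrays thus lay close together and far from the 6 cerebellum arrays. For a probe not well above background on any array of a group, the fold is a bound. On each array of that group the signal of the probe was raised, where it was lower, to that of the dimmest probe still well above background. By this rule Kcnv1 was at least 18.3-fold higher in the hippocampus of En2WT mice (limma adjusted p = 3.16e-10) and at least 19.4-fold higher in that of En2KO mice. Its probe lies at chr15:44940003-44940062 of mm9, the build used by the deposited annotation for all probe positions. With normexp background correction the fitted difference in En2WT shrank from -5.71 to -2.12.

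Kcnj4, an inward rectifier, was measured in every sample. In the cerebellum it read 8.53, 8.60 and 9.08 in En2WT and 8.62, 8.66 and 8.76 in En2KO. The hippocampus gave 14.26, 14.40 and 14.29 in En2WT and 14.28, 14.45 and 14.40 in En2KO. The regions were separated by far more than the arrays of a group, 47.7-fold in En2WT (log2 difference -5.58, SE 0.17, limma adjusted p = 6.89e-10) and 51.8-fold in En2KO. The opposite end was held by Kcng4, another silent modifier. Its cerebellum values were 11.06, 11.02 and 9.92 in En2WT and 9.39, 10.41 and 9.95 in En2KO. Its hippocampus values were 6.81, 6.67 and 6.59 in En2WT and 6.15, 5.98 and 6.06 in En2KO. Every cerebellum array lay above every hippocampus array, by 15.8-fold in En2WT (log2 difference 3.98, SE 0.31, limma adjusted p = 1.54e-06) and 14.4-fold in En2KO.

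**Figure D2:**
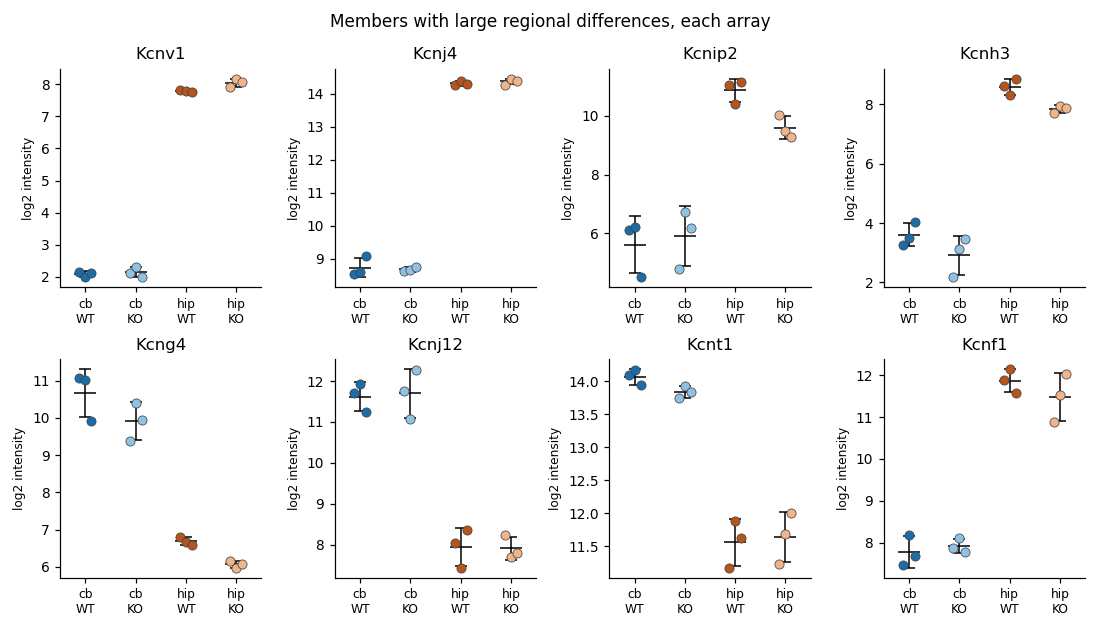
Log2 intensity (vertical axes, each with its own range) of 8 members with large regional differences on each array, by region (cb, cerebellum; hip, hippocampus) and genotype (horizontal axes). Points are arrays, 3 per group, and black bars give the mean and SD. For Kcnv1 the 6 cerebellum arrays sit between 1.99 and 2.31 and the 6 hippocampus arrays between 7.76 and 8.17, and no member shown has a cerebellum array among its hippocampus arrays.

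The promoters of the 3 members with the largest differences each way for which RefSeq held an entry are printed here, so that the sequence ahead of the most regional genes can be read beside their values. Each is the 250 bases before the start of the gene on the GRCm38.p6 build, 5′ to 3′ on the strand of the gene. Capitals mark matches to the GC box GGGCGG on either strand. No entry was held for Kcnv1, Kcnh3 and Kcnt1, whose differences would have ranked among these.
Kcnj4, chr15:79505242-79505491, minus strand: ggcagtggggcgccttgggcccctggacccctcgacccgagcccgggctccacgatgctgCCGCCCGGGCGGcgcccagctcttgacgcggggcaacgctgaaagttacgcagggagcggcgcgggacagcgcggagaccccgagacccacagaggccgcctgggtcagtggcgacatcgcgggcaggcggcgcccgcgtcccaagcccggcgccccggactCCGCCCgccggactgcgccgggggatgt
Kcnip2, chr19:45816064-45816313, minus strand: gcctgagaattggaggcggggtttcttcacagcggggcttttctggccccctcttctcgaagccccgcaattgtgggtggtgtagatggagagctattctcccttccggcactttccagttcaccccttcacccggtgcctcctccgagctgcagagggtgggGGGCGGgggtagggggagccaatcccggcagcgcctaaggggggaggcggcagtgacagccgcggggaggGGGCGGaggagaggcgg
Kcnt2, chr1:140245468-140245717, plus strand: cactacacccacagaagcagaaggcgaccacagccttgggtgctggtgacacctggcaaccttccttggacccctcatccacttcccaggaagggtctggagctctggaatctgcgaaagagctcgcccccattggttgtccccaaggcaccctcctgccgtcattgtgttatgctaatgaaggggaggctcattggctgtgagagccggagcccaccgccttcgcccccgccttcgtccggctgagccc
Kcng4, chr8:119635681-119635930, minus strand: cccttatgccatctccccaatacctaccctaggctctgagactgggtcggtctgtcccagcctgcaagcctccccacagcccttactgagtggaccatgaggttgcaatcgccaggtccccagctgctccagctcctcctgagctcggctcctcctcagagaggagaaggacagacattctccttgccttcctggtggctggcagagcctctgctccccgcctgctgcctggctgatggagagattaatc
Kcnj12, chr11:61065554-61065803, plus strand: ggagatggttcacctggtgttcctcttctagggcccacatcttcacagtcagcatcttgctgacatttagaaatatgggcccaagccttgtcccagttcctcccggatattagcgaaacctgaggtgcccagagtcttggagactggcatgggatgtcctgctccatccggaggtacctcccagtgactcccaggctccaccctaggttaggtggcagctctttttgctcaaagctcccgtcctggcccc
Kcne1l, chrX:142306199-142306448, minus strand: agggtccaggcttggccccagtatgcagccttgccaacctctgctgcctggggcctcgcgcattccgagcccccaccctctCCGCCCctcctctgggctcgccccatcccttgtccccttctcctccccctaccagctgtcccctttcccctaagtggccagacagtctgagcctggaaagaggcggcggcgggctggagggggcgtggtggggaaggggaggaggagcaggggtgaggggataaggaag

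The first 3 belong to members called higher in the hippocampus and the last 3 to members called higher in the cerebellum. GC content ran from 77.2% for Kcnj4 to 56.0% for Kcnj12. The Kcnj4 promoter held 3 GC boxes, 2 of them side by side on opposite strands, Kcnip2 held 2, Kcne1l held 1, and the other 3 held 0. RefSeq had promoters for 64 of the 87 members, 89 in all, and each window of 250 bases was searched on both strands. The GC box was found in 46.1% of the member promoters and 32.7% of all 32851 promoters. Among members called in both genotypes it was found in 8 of 16 promoters of those higher in the cerebellum and 9 of 18 of those higher in the hippocampus. The TATA box (TATAAA) was in 2.25% of member promoters, against 12.4% of all. The cyclic AMP response element TGACGTCA and the homeodomain core TAATTA were in 0 of the 89, against 1.55% and 4.84% of all promoters. These matches are descriptions of the letters in these windows and no sites of binding.

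Kcnb2, a Kv2 pore that carries delayed rectifier current, was called 3.97-fold higher in the hippocampus of En2WT mice (limma adjusted p = 0.00163). The silent modifiers, which form channels with Kv2 pores, went the same way in most cases: of 7 tested, 5 were called higher in the hippocampus, 1 (Kcng4) higher in the cerebellum and 1 (Kcns3) was not called. Kcnf1 differed by -4.09 on the log2 scale (17.1-fold, limma adjusted p = 5.99e-07), Kcng2 by -3.27 (9.62-fold), Kcns2 by -2.18 and Kcns1 by -1.87. The Kcnf1 difference was -2.64 when the probes of the gene were averaged, and that of Kcns2 was -1.15 with the authors' values. In En2KO mice the modifiers again gave 5 calls for the hippocampus and 1 for the cerebellum, with a subfamily median of -2.20 beside -2.18 in En2WT. Amigo1, a membrane partner of Kv2 channels, was not called in En2WT (log2 difference 0.16, limma adjusted p = 0.614).

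The Kv4 pores, which carry the fast A-type current of dendrites, showed no called difference by their brightest probes. Some of their accessory proteins were called. Kcnd2 read 14.08, 14.42 and 15.18 in the En2WT cerebellum and 14.18, 14.70 and 14.29 in the hippocampus, and the arrays of the regions overlapped (log2 difference 0.17, limma adjusted p = 0.642). The other Kcnd2 probe, singled out after its values were seen, was higher in the cerebellum without overlap in both genotypes. It read 12.34, 12.37 and 12.09 against 11.97, 11.01 and 11.79 in En2WT. In En2KO it read 12.18, 12.13 and 12.58 against 11.19, 11.27 and 10.84. Kcnd3 differed by 0.37 (limma adjusted p = 0.283), and passed with the authors' values. Kcnip2, a calcium-binding protein that joins Kv4 pores, read 6.12, 6.21 and 4.49 in the En2WT cerebellum and 11.07, 10.43 and 11.15 in the hippocampus. All hippocampus arrays lay above all cerebellum arrays, 38.8-fold on average (SE 0.52 on the log2 scale, limma adjusted p = 1.12e-05). In En2KO mice the values were 4.77, 6.74 and 6.18 against 10.03, 9.49 and 9.28, a 13.0-fold difference (limma adjusted p = 0.000232). Kcnip1, of the same family, was called the other way, 2.28-fold higher in the cerebellum (limma adjusted p = 0.00402). Kcnip3 (-0.23) and Kcnip4 (0.38) were not called in En2WT, though Kcnip4 passed with the authors' values. Of the dipeptidyl peptidase-like proteins that also join Kv4 pores, Dpp10 was higher in the cerebellum by 1.56 (limma adjusted p = 0.00049) and Dpp6 differed by 0.32 (limma adjusted p = 0.194).

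Of 6 Kv1 pores tested, found on axons and terminals, 2 were called. Kcna4 was called higher in the hippocampus (log2 difference -1.90, limma adjusted p = 7.96e-05) and Kcna6 higher in the cerebellum (0.57, limma adjusted p = 0.0385). The Kcna6 call was lost without any 1 of 5 of the 6 En2WT arrays. Kcna1, at 15.93, 15.86 and 15.59 in the En2WT cerebellum and 15.52, 15.30 and 15.54 in the hippocampus, differed by 0.34 (limma adjusted p = 0.154), and was called in En2KO mice only, at 0.74 (limma adjusted p = 0.00705). The difference between these 2 values was not called (0.40, limma adjusted p = 0.511). Kcna2 differed by 0.58 (limma adjusted p = 0.0841), and passed with the authors' values and without the first En2WT hippocampus array. The beta subunits, which bind the inside of Kv1 pores, split: Kcnab2 was 3.67-fold higher in the hippocampus (12.59, 12.34 and 11.63 against 14.82, 13.76 and 13.62, limma adjusted p = 0.0008), Kcnab3 was 2.83-fold higher in the cerebellum (limma adjusted p = 0.00562), and Kcnab1 was not called (-0.42). Of the axonal proteins that hold Kv1 channels in place, Cntn2 was higher in the cerebellum (1.38) and Cntnap2 (-0.86) and the secreted Lgi1 (-1.87) higher in the hippocampus.

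Among the Kv3 pores, which close fast and let neurons fire at high rates, Kcnc2 read 10.65, 11.04 and 10.73 in the En2WT cerebellum and 12.52, 12.50 and 11.83 in the hippocampus. The regions did not overlap, and Kcnc2 was 2.78-fold higher in the hippocampus (limma adjusted p = 0.000364). Kcnc4 differed by -0.18 (limma adjusted p = 0.777). All 3 genes listed as markers of parvalbumin interneurons, cells that fire fast, were called higher in the cerebellum in both genotypes. Whether other cells of the cerebellum held these genes was not tested, nor was their part in the Kv3 values. Kcnc1 was 4.51-fold higher in the cerebellum of En2WT (limma adjusted p = 1.86e-05) and 2.58-fold in En2KO (limma adjusted p = 0.000794) by its brightest probe, but its 3 probes did not read alike, and their mean differed by 1.28 in En2WT. The first 30 of 60 bases of each are given in the order of their mm9 positions on chromosome 7, to show that they are different stretches of the gene.
Kcnc1 probe 1, chr7:53682767-53682826: tgtctggagactcacgagcgcttcaacccc
Kcnc1 probe 2, chr7:53688225-53688284: tccttctctggacaagaagagcaggctatg
Kcnc1 probe 3, chr7:53693712-53693771: gagattcgagcatgaaataaattttgtaac

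Probe 3 stood for the gene, with 13.15, 13.69 and 13.72 in the En2WT cerebellum and 11.44, 11.42 and 11.19 in the hippocampus. Probe 1 also read higher in the cerebellum, by 2.11 in En2WT and 2.55 in En2KO. Probe 2 read 10.09, 9.34 and 9.57 in the En2WT cerebellum and 10.43, 10.26 and 9.64 in the hippocampus, overlapping sets that differed by -0.44. In En2KO it read 9.85, 9.88 and 10.01 against 10.23, 10.44 and 10.08, lower in the cerebellum without overlap (-0.34). Which transcripts each probe binds was not tested. Among the 23 members with several tested probes, the sign of the En2WT difference varied between probes for 4, namely Kcnab1, Kcnc1, Kcnip3 and Kcnj3.

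**Figure D3:**
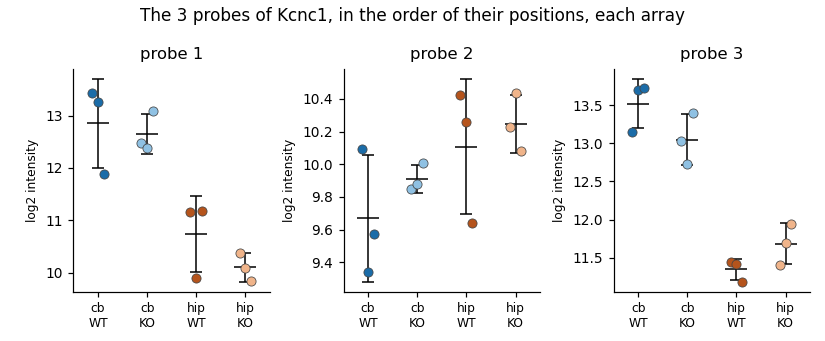
Log2 intensity (vertical axes, each with its own range) of the 3 Kcnc1 probes, numbered in the order of their positions, on each array by region (cb, cerebellum; hip, hippocampus) and genotype. Points are arrays, 3 per group, and black bars give the mean and SD. Probes 1 and 3 are higher on every cerebellum array than on any hippocampus array. Probe 2 overlaps between the regions in En2WT and is lower on every cerebellum array in En2KO.

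Among the Kv7 pores, which carry the M-current that damps repeated firing, Kcnq5 read 6.67, 6.33 and 5.72 in the En2WT cerebellum and 10.11, 10.19 and 10.17 in the hippocampus, 15.1-fold higher there (limma adjusted p = 9.04e-08) and 12.7-fold higher in En2KO. Kcnq3 was 4.61-fold higher in the hippocampus (limma adjusted p = 0.000558), tested through that region only. The log2 difference of Kcnq3 was -2.20, and -0.75 with normexp correction. Kcnq1 was not called (0.51). Kcnq1ot1, a non-coding RNA that carries the prefix but is no channel, was 2.26-fold higher in the cerebellum (limma adjusted p = 0.0367), a call lost in 6 alternatives. Among the ether-a-go-go relatives, Kcnh3 read 3.27, 3.50 and 4.04 in the En2WT cerebellum, on no array well above background, and 8.61, 8.33 and 8.87 in the hippocampus. It was at least 29.3-fold higher in the hippocampus of En2WT (limma adjusted p = 1.99e-07) and at least 16.8-fold higher in that of En2KO. Its fitted log2 difference in En2WT was -5.00, and -2.51 with normexp correction. Kcnh2, the ERG channel known from the heart, was 2.66-fold higher in the cerebellum (limma adjusted p = 0.0136) and Kcnh5 1.96-fold higher in the hippocampus (limma adjusted p = 0.00588). Kcnh1 differed by -0.19 and was not called. The Kcnh2 call was lost without the first or the second En2WT cerebellum array.

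Of the pores opened by ions inside the cell, the sodium-activated Kcnt1 read 14.09, 14.17 and 13.94 in the En2WT cerebellum and 11.17, 11.88 and 11.63 in the hippocampus, 5.67-fold higher in the cerebellum (limma adjusted p = 4.95e-06). Kcnt2, the other sodium-activated pore, read 3.31, 3.96 and 4.47 against 8.39, 8.33 and 8.03, 20.2-fold higher in the hippocampus (limma adjusted p = 1.65e-07). It was well above background on 2 of 3 of these cerebellum arrays and was tested through the hippocampus only. With the authors' values the log2 difference of Kcnt2 was -1.85 in place of -4.34. The small-conductance pores Kcnn1 (-0.53, limma adjusted p = 0.0297) and Kcnn2 (-0.65, limma adjusted p = 0.017) were called higher in the hippocampus, calls that were each lost in 6 or 7 alternatives. Kcnma1, the pore of the large-conductance BK channel, differed by -0.31 (limma adjusted p = 0.367), and its beta subunits Kcnmb2 (-0.68, limma adjusted p = 0.054) and Kcnmb4 (-0.26) were not called in En2WT. Lrrc55, a gamma subunit of BK channels, was higher in the hippocampus (log2 difference -1.44, limma adjusted p = 0.00057).

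The inward rectifiers had 12 tested members, 5 called higher in the cerebellum and 4 higher in the hippocampus. Within the strong rectifiers, Kcnj12 was the counterpart of Kcnj4, with 11.70, 11.92 and 11.24 in the En2WT cerebellum and 8.04, 7.44 and 8.36 in the hippocampus. This was a 12.8-fold difference (limma adjusted p = 4.27e-06), and 13.9-fold in En2KO. Kcnj2, tested through the hippocampus only, was 3.00-fold higher there (limma adjusted p = 0.00696), and Kcnj14 was not called in En2WT (0.58). The glial rectifiers Kcnj10 and Kcnj16, which clear potassium from around neurons, were both higher in the cerebellum, 2.02-fold (limma adjusted p = 0.00358) and 2.52-fold (limma adjusted p = 0.00129). Of 5 astrocyte markers, 2 were called higher in the cerebellum and 1 higher in the hippocampus in En2WT, with a median of 0.29, and the part of astrocyte content in the result was not tested. The G protein-gated pores, opened by inhibitory receptors, split: Kcnj3 (-1.08, limma adjusted p = 0.0276) and Kcnj6 (-1.75, limma adjusted p = 0.000261) were higher in the hippocampus and Kcnj9 higher in the cerebellum (0.85, limma adjusted p = 0.00228). The calls of Kcnj3 and Kcnj6 were lost with the authors' values, at -0.70 and -0.35, and that of Kcnj3 in 5 of 21 alternatives in all, among which its difference ran from -1.31 to -0.53. The pores closed by ATP were Kcnj8, higher in the cerebellum (0.65, limma adjusted p = 0.0336), and Kcnj11, not called in En2WT (0.31, limma adjusted p = 0.314). Of 5 markers of pericytes and smooth muscle, cells known to hold Kcnj8, 2 were called higher in the hippocampus and 0 higher in the cerebellum. Their sulfonylurea receptors Abcc8 (0.25) and Abcc9 (0.34) were not called.

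Of the 2-pore leak channels, 9 were tested and 7 called. Kcnk3, an acid-sensitive leak pore, read 11.29, 11.04 and 10.39 in the En2WT cerebellum and 9.09, 8.75 and 8.71 in the hippocampus, 4.16-fold higher in the cerebellum (limma adjusted p = 0.000401). Kcnk12 (1.65, limma adjusted p = 0.0166), Kcnk10 (1.19, limma adjusted p = 0.0468) and Kcnk5 (at least 1.06-fold, limma adjusted p = 0.0223) were also called higher in the cerebellum. Kcnk10 and Kcnk5, well above background on 2 and 0 of 3 hippocampus arrays, were tested through the cerebellum only. The Kcnk12 call was lost without the first or second En2WT cerebellum array or the second En2WT hippocampus array. Kcnk2 and Kcnk4 went the other way, 3.19-fold (limma adjusted p = 0.00387) and 2.64-fold (limma adjusted p = 0.000337) higher in the hippocampus, as did Kcnk6, 2.37-fold (limma adjusted p = 0.000107). With the authors' values the log2 difference of Kcnk2 was -0.98 in place of -1.68. Kcnk1 differed by 0.47 (limma adjusted p = 0.101), and passed with normexp correction, with scaling to the 75th percentile and with the authors' values.

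Among the small Kcne accessory subunits, Kcne1l, which the array annotation describes as a pseudogene, read 11.39, 11.31 and 12.19 in the En2WT cerebellum and 8.97, 9.52 and 9.68 in the hippocampus, 4.73-fold higher in the cerebellum (limma adjusted p = 5.82e-05). Kcne2, a subunit of the choroid plexus epithelium, read 11.58, 10.98 and 11.12 in the En2WT cerebellum and 11.41, 11.83 and 12.41 in the hippocampus. The En2KO hippocampus gave 13.19, 8.43 and 11.32, spread far more widely than the other groups of this gene. For marker lists a summed level is given, the log2 of the summed intensities, in which the brightest probes weigh most. On the same 3 arrays the summed level of 5 choroid plexus markers ranged from 12.05 to 16.48, against 14.43 to 15.78 in En2WT. The part of choroid plexus content in the values of Kcne2 was not tested. No regional or genotype difference of Kcne2 was called.

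The En2KO arrays gave a second regional comparison, whose group means share no array with those of the first. There 38 of 70 tested members (54.3%) were called, against 27.0% of all genes, 18 of them higher in the cerebellum (against 12.8% of all genes) and 20 higher in the hippocampus (against 14.2%). Of the 70, 7 were tested only through the region where they were bright, and 5 of these were called. The authors' values again shifted the split, to 25 higher in the cerebellum of 37 called among 59 tested. Of 70 members tested in both genotypes, 60 had the same sign. Called in both with 1 sign were 33 (47.1%, against 19.3% of all genes), 14 higher in the cerebellum and 19 higher in the hippocampus, and 0 were called in opposite directions. A further 11 were called in En2WT only and 5 in En2KO only, which does not show that the genotypes differed. The calls of the genotypes are not independent of each other. Both used the residual variance of the same fit, and all arrays were normalised together. Among 13 tested partner genes of potassium and pacemaker channels whose names lack the prefix, 3 were called higher in each region in En2WT, Hcn3 (0.81) being the pacemaker channel among them, while Adam22 and Lrrc52 were not tested.

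In the cerebellum, En2KO against En2WT, no member was called by limma: 0 of 69 tested, against 1.02% of all genes. An unadjusted p under 0.05 was reached by 8 members (11.6%, against 9.91% of all genes), 4 with a higher and 4 with a lower mean in En2KO. The 3 En2KO arrays lay entirely above the 3 En2WT arrays for 5 members (7.25%, against 6.01%) and entirely under them for 8 (11.6%, against 8.79%). By an exact permutation test of a single gene, 3 arrays against 3 cannot give a two-sided p under 0.1. The rank product, the test used by the study, called 3 members at its limit of 0.01, against 5.06% of all genes. All of them were higher in En2KO, Kcnj14 and Kcnt2 among them, but the calls over all genes were not split by direction. The median change of the members was -0.06, beside -0.03 over all genes.

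Kcnt2 read 3.31, 3.96 and 4.47 in En2WT, well above background on 2 of 3 arrays, and 4.73, 5.15 and 4.66 in En2KO, a change of 0.93 (SE 0.26, limma adjusted p = 0.173). Its other probe changed by 0.94. Without the third En2WT cerebellum array the change was 1.21 and passed (limma adjusted p = 0.0308), and with normexp correction it was 0.21. Kcnj14 read 8.26, 8.22 and 6.54 in En2WT and 9.23, 9.10 and 8.21 in En2KO, which overlapped (1.17, limma adjusted p = 0.317). Kcnmb2, the BK beta subunit that inactivates the channel, read 6.15, 6.54 and 6.70 in En2WT and 7.24, 7.16 and 7.11 in En2KO (0.71, limma adjusted p = 0.32). Kcnh8 (0.60) and Kcnk6 (0.30) also had a higher mean in En2KO without overlap.

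On the lower side, Kcnj11 read 9.277, 9.003 and 8.659 in the En2WT cerebellum and 8.083, 8.092 and 8.587 in the En2KO cerebellum, without overlap (log2 change -0.73, SE 0.22, limma adjusted p = 0.216). Kcns3, a silent modifier, read 9.953, 10.001 and 9.898 against 9.306, 9.474 and 8.918 (-0.72, SE 0.21, limma adjusted p = 0.195). Both sets of arrays were separated, but neither change passed the adjustment over all genes. Kcnn4, Kcnma1 (-0.49) and Kcnab1 (-0.40) were the next lowest of the non-overlapping members. Kcnn4 was well above background on 0 of 3 En2KO arrays and had a mean at least 1.5-fold lower there (limma adjusted p = 0.533), and Kcnab1 rested on 2 En2WT arrays, 1 spot being flagged. In the cerebellum the summed level of 5 Purkinje cell markers was 17.75 to 18.12 in En2WT and 17.51 to 17.63 in En2KO. That of 5 granule cell markers was 17.95 to 18.33 and 17.92 to 17.93. Both lay lower in En2KO without overlap, as did the astrocyte and pyramidal cell sums. The brightest markers lead these sums, and the single markers did not all follow. Their median log2 change was -0.55 for Purkinje, -0.16 for granule, 0.18 for astrocyte and 0.01 for pyramidal cell markers, and none of these markers was called. The choroid plexus sum lay higher, at 14.43 to 14.80 against 14.03 to 14.33 in En2WT, and the other marker sums overlapped. The part of these markers in the member values was not tested.

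In the hippocampus 1 of 70 tested members was called, Kcnj11, against 1.07% of all genes. This gene codes for the pore of the ATP-sensitive potassium channel, which closes when the cell is well supplied with energy. It read 8.76, 8.78 and 8.48 in En2WT and 7.20, 7.27 and 7.69 in En2KO. Every En2KO array lay under every En2WT array, by 2.44-fold on average (log2 change -1.29, SE 0.22, limma adjusted p = 0.0135). Arrays scanned together, 1 per group in each of the 3 scans, carried the same replicate number. Within the scans the change was -1.56, -1.51 and -0.78, and with the scan as a block the limma adjusted p was 0.0316. Leaving out the first or second array of either hippocampus group moved it to between 0.0506 and 0.0702, so that the call ended, while the change stayed between -1.20 and -1.24. Without the third array of either group it held. In the cerebellum, on other arrays, the change of Kcnj11 was -0.73, and the difference between the regions in this change was not called.

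Kcnj11 had 1 probe, at chr7:53353119-53353178 of mm9, whose first 30 of 60 bases are given to identify the stretch measured: agaaaaagaaatattgggaagttcagcctg. Of the sulfonylurea receptors that complete the channel, Abcc8 changed by -0.18 in the hippocampus (limma adjusted p = 0.616) and by -0.45 in the cerebellum (limma adjusted p = 0.395), and Abcc9 by -0.10 and -0.36. Within 2 Mb to either side of the probe, a window chosen after the values were seen, 108 genes were tested in the hippocampus and 2 called, Kcnj11 and the kallikrein gene Klk1b24. In the cerebellum 112 were tested and 3 called, the kallikrein genes Klk1b21, Klk1b24 and Klk1b3, all higher in En2KO. The members Kcnc1 and Kcnj14 lie in the same window and were not called by limma for genotype in either region, while the rank product called Kcnj14 in the cerebellum.

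**Figure D4:**
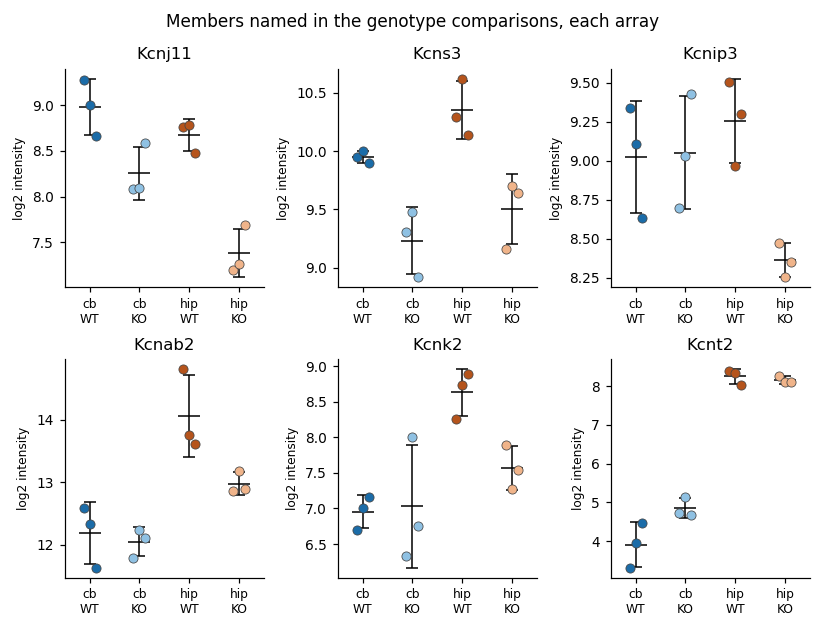
Log2 intensity (vertical axes, each with its own range) of 6 members named in the genotype comparisons on each array, by region (cb, cerebellum; hip, hippocampus) and genotype. Points are arrays, 3 per group, and black bars give the mean and SD. For Kcnj11 the En2KO arrays lie under the En2WT arrays in both regions, from 7.20 to 7.69 against 8.48 to 8.78 in the hippocampus.

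No other member passed the adjusted threshold in the hippocampus, but the members were uneven in direction. The following counts include Kcnj11. An unadjusted p under 0.05 was reached by 10 members (14.3%, against 15.9% of all genes), and all 10 had a lower mean in En2KO. The share of all genes was not split by direction at this limit. The En2KO arrays lay entirely under the En2WT arrays for 17 members (24.3%, against 11.3% of all genes) and entirely above them for 5 (7.14%, against 15.2%). The median change of the members was -0.11, beside 0.05 over all genes, and in single scans it was -0.29, -0.09 and -0.03. The rank product called 4 members at its limit of 0.005, against 4.14% of all genes, all lower in En2KO: Kcnab2, Kcnip2, Kcnj11 and Kcnk2. Its calls over all genes were not split by direction either.

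All 4 Kcnip genes had a lower mean in the En2KO hippocampus, with a median of -0.72. Kcnip2 read 11.07, 10.43 and 11.15 in En2WT and 10.03, 9.49 and 9.28 in En2KO, without overlap (-1.28, SE 0.52, limma adjusted p = 0.269). Kcnip3, which also acts as a calcium-dependent repressor of transcription, read 9.50, 8.97 and 9.30 against 8.47, 8.26 and 8.35 (-0.89, SE 0.24, limma adjusted p = 0.108). These sets were separate, but the mean over both probes of Kcnip3 was -0.31. Kcnab2 read 14.82, 13.76 and 13.62 against 12.86, 13.19 and 12.90 (-1.08, limma adjusted p = 0.153), and without the first En2WT array its change was -0.71. Kcnk2 read 8.26, 8.74 and 8.89 against 7.90, 7.28 and 7.54 (-1.06, limma adjusted p = 0.201). Kcns3, which had a lower En2KO mean in the cerebellum as well, read 10.29, 10.62 and 10.14 against 9.16, 9.71 and 9.64 (-0.85, SE 0.21, limma adjusted p = 0.085). Its change was called in neither region.

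The 5 members with separated arrays and a higher mean in the En2KO hippocampus were Kcne1l (0.54), Kcnd3 (0.44), Kcnj14 (0.35), Kcnj8 (0.29) and Kcnv1 (0.25). For Kcnj8 and Kcnv1 the sign hung on the probe. The brightest Kcnv1 probe read 7.83, 7.80 and 7.76 in En2WT and 7.91, 8.17 and 8.07 in En2KO. The other Kcnv1 probe, singled out after its values were seen, read 7.90, 7.76 and 7.72 against 6.55, 6.77 and 6.24. Its change was -1.27 (limma adjusted p = 0.0371 over probes). Of 23 members with several tested probes, 14 had probes of both signs in this comparison, so that small hippocampal changes of single probes carry little. In the cerebellum this held for 5 of 19.

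The hippocampal arrays also differed in markers of other cells. The summed level of 6 thalamus markers ranged from 12.27 to 12.98 in En2WT and from 13.21 to 13.83 in En2KO, with 1 of 6 called (Lef1, 0.93, limma adjusted p = 0.0488). The level of 5 microglia markers ranged from 13.49 to 13.85 in En2WT and from 13.10 to 13.22 in En2KO, that of 5 astrocyte markers from 15.65 to 15.85 and from 15.43 to 15.59, and that of 5 pyramidal cell markers from 14.65 to 15.04 and from 14.47 to 14.87. The thalamus, microglia and astrocyte sums did not overlap between the genotypes. Among the microglia markers 4 were lower in En2KO, from -1.14 for Cx3cr1 to -0.53 for Tmem119, and Aif1 was higher (0.59), each without overlap and none called. The summed level of 5 granule cell markers overlapped (13.43 to 14.04 and 13.40 to 14.07), while Zic1 (1.24, limma adjusted p = 0.0589, with 2 En2KO arrays) and Cbln1 (1.10, limma adjusted p = 0.127) were higher in En2KO without overlap and with an unadjusted p under 0.05. The part of these markers in the member changes was not tested. Of the 13 partner genes tested, 0 were called for genotype in either region by limma and 0 by the rank product, while 1 cerebellar and 2 hippocampal changes had an unadjusted p under 0.05. Their cerebellar median change was -0.12 and their hippocampal one -0.25, and Dpp6 in the hippocampus came closest (-0.75, limma adjusted p = 0.0756).

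**Figure D5:**
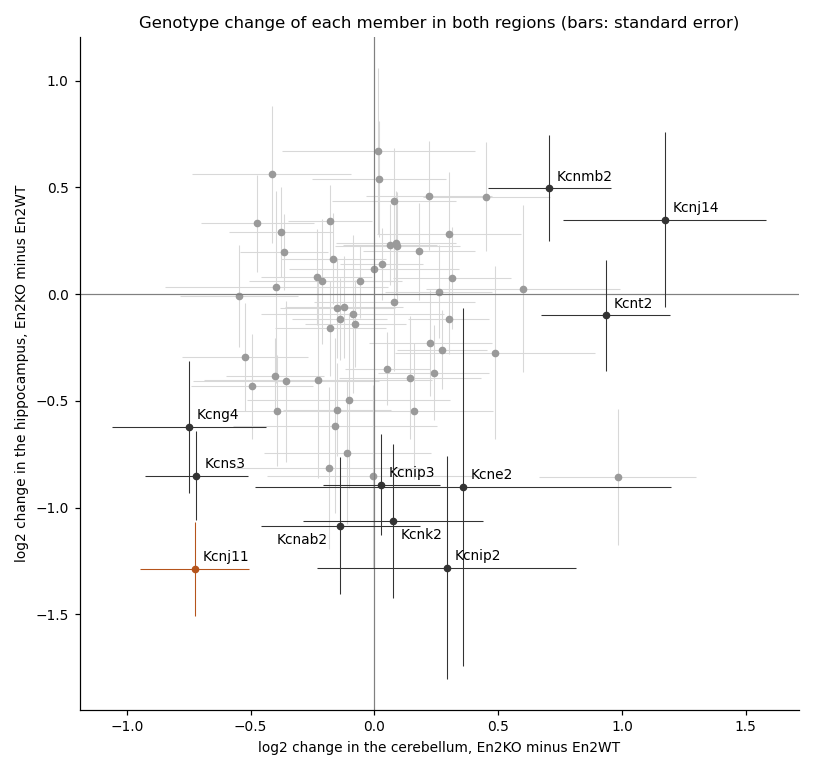
Log2 change, En2KO minus En2WT, in the cerebellum (horizontal axis) and the hippocampus (vertical axis) of the 65 members tested in both regions, with bars for the standard error. The brown point is Kcnj11, the member called by limma in the hippocampus, at -0.73 and -1.29, and other labelled points, none of them called by limma, include Kcnt2 at 0.93 and -0.10.

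Whether the genotype change differed between the regions was tested directly over all 12 arrays. No member was called, 0 of 74, against 0.145% of all genes, and an unadjusted p under 0.05 was reached by 8 members (10.8%, against 11.9% of all genes). Among them were Kcnk10 (1.43), Kcnk2 (1.14), Kcnt2 (1.03), Kcnip3 (0.92), Kcnmb4 (-0.56), Kcnj8 (-0.67) and Kcnc1 (-0.80). These values rest on the brightest probe of each gene. For Kcnip3, Kcnj8 and Kcnc1 the sign of the hippocampal genotype change varied between the probes of the gene. Kcnk10 was well above background on only 2 En2WT and 1 En2KO hippocampus arrays, and Kcnt2 was near background in the cerebellum.

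The 13 members tested in no comparison included Kcnd1, Kcne3, Kcng3, Kcnh7, Kcnj1, Kcnj5, Kcnk7, Kcnk16, Kcnmb1, Kcnmb3, Kcnn3 and Kcnv2. Of these, Kcng3, Kcnk16 and Kcnv2 were well above background on no array. Kcnj1 was well above background on 2 of 3 En2KO cerebellum arrays and on no other, with 4.85, 4.89 and 3.06 in En2KO and 1.84, 1.83 and 1.88 in En2WT. It met the test only when the third En2KO cerebellum array was left out, and was then called (3.02, limma adjusted p = 0.00787). Kcnj5 was well above background on 1 array alone, a hippocampus En2KO array at 7.79, beside 3.43 and 1.85 on the other two. Kcnj13 and Kcnk9 were not analysed here.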

How the data were processed

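RNA was hybridised to one-colour Agilent arrays, 3 per region and genotype. The authors deposited the scanner intensity of each spot, already corrected for background within its array, and a table of log2 values that they had filtered and quantile normalised within each region. Processed intensities were taken to log2 here, control spots and outlier flags were left out, values were quantile normalised over the 12 arrays and the brightest probe stood for a gene. The 6283 probes without a gene name were not tested. Groups were compared in limma 3.58.1 (R 4.3.3) in 1 fit over the 4 groups with 8 residual degrees of freedom, with Benjamini-Hochberg adjustment over all genes tested. Labels do not name the mouse of each array, so that p-values measure the spread between arrays. The fits and the rank product (100 permutations) were tested on simulated data. Figures were drawn with matplotlib 3.10.9.

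The members, the partner genes and the marker lists were chosen with earlier results of these data known. Members were named by rule: in En2WT the largest called differences each way in each subfamily and over all members, between genotypes every called member and the 5 highest and lowest without overlap, and well-known subunits. Alternatives were normexp with an offset of 50, other normalisations, the authors' log2 values, other filters, the mean of all probes, flagged spots kept, a fit of the 2 groups compared, a 2-fold threshold, the rank product, the scan (equal to the replicate number) as a block and each array left out. Arrays with the same number had deviations that correlated at -0.19 to 0.26. Values of some members are not reported here.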

Additional observations from a re-analysis of the deposited data

How the results depend on the processing

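The number of members called between the regions lay between 38 and 45 over the alternatives in En2WT and between 32 and 41 in En2KO, and the difference between the genotype changes gave 0 throughout. With the replicate number as a block, the pairing of arrays by scan gave 44, 38, 0, 1 and 0 members called in the 5 comparisons. Between genotypes in the cerebellum, leaving out single arrays gave 0 to 1 members (Kcnj1 without the third En2KO array, Kcnt2 without the third En2WT array) and the rank product 3. In the hippocampus leaving out single arrays gave 0 to 1 (0 without the first or second array of either group) and the rank product 4. The median hippocampal change of the members was -0.25 with the mean of all probes, and -0.25 to -0.08 over the alternatives. The median regional difference in En2WT was 0.18 with the authors' values, when that of all genes was 0.32, and -0.33 to -0.14 with single arrays left out.

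Of 980 values for 47 named regional results, 914 kept their direction and side of the threshold, 53 lost the call, 7 gained it and 6 changed sign. The sign changes were Kcnma1 (0.055), Kcnip3 (0.068) and Kcnh1 (0.16) with the authors' values, Kcnip3 with the mean of all probes (0.0082), and Kcnd2 (-0.14, range -0.14 to 0.41 with single arrays left out) and Kcnh1 (0.27, range -0.54 to 0.27) without the third En2WT cerebellum array, none of them called. Between genotypes, Kcnab1 in the cerebellum (0.23) and Kcnv1 in the hippocampus (-0.51) changed sign with the mean of all probes, and the other values kept it. The cause was not tested. Where a probe was not well above background on any array of a group, its fold is only a bound.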
